A study of Homo sapiens with 36 samples.

Results

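The 4 human HOX gene clusters were examined for TET1 binding in HEK293T, an established line from human embryonic kidney that expresses SV40 large T antigen. The clusters were taken as fixed windows on hg19: HOXA at chromosome 7, 27.1 to 27.27 Mb, HOXB at chromosome 17, 46.58 to 46.83 Mb, HOXC at chromosome 12, 54.31 to 54.47 Mb, and HOXD at chromosome 2, 176.92 to 177.08 Mb. Every TET1 peak overlapping a window was a member. No rule on peak values set the windows, but earlier results of these data were known when they were chosen. A peak with several summits counted as 1 interval. The clusters held 94 of the 60933 intervals in 6 peak lists: 41 of 28072 in cells given siNC, 53 of 32208 in cells given siCHD5, and 0 in each list of cells given siCHD3, siCHD4, siMBD2 or siMBD3. These windows carry 38 HOX genes.

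All groups were the same line, transfected with 1 of 6 siRNAs and otherwise grown alike. The label siNC was taken as the control, and the others name CHD3, CHD4 and CHD5, ATPases of the NuRD chromatin-remodelling complex, and MBD2 and MBD3, subunits of the same complex named for a domain that binds methylated CpG in MBD2. Each group had 3 pull-down libraries with an antibody to TET1 and 3 input libraries, and 1 peak list whose name carries the 3 replicates together. The lists therefore gave no spread between replicates, and no difference between siRNAs could be tested. siRNA knockdown is transient, and how far each target was depleted was not analysed here.

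HOX genes encode homeodomain transcription factors that give cells their position along the body axis, and within a cluster they lie in the order in which they are used along that axis. The clusters are unusually rich in CpG islands, are classic targets of Polycomb repression, and are divided into domains at sites bound by CTCF. TET1 is a dioxygenase that oxidises 5-methylcytosine, and its CXXC domain binds CpG-rich DNA. The coordinates of the RefSeq gene table (GRCh38.p14) run from HOXA2 to HOXA13, from HOXB1 to HOXB13, from HOXC13 to HOXC4 and from HOXD13 to HOXD1. That table is of another build than the peaks, so peaks are given by position and were not assigned to single genes.

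The CpG content of the HOX promoters is shown because CpG is the sequence that TET1 binds and acts on. RefSeq promoter sequences (GRCh38.p14, 250 bases before to 50 after a start) matched 20 of the 38 genes in 26 distinct windows. No entry was matched for HOXA5, HOXB2, HOXB3, HOXB4, HOXB5, HOXB6, HOXB7, HOXB8, HOXB9, HOXB13, HOXC6, HOXC8, HOXC9, HOXC10, HOXC11, HOXC12, HOXC13 or HOXD9. The HOX windows held 0 to 44 CpG dinucleotides with a median of 22.5, against a median of 14 over 34943 promoter windows of all genes. Of the 26 HOX windows 19 (73.1%) held more CpGs than that median, as did 48.8% of all windows. Base composition differed little, with a median GC content of 58% in HOX windows and 58.7% in all. Of the 26 windows 16 were in HOXA, 8 in HOXD and 1 each in HOXB and HOXC. For each cluster, the 250 bases before the start with the most CpGs in the window follow, 5′ to 3′ on the gene's strand, with each CpG in capitals. Their coordinates are on GRCh38.p14 and cannot be set beside the hg19 positions of the peaks.
HOXA13, chr7:27200092-27200341 (-): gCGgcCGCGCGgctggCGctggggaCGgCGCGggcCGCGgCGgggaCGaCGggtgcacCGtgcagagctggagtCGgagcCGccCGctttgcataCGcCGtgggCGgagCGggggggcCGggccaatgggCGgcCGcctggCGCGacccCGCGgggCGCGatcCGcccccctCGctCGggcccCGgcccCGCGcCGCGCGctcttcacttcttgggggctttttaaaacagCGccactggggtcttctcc
HOXB1, chr17:48531012-48531261 (-): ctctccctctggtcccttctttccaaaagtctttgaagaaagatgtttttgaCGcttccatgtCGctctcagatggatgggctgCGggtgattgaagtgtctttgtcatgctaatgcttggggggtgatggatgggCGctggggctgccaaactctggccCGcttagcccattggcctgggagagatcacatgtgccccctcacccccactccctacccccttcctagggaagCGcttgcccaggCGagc
HOXC4/HOXC5, chr12:54016638-54016887 (+): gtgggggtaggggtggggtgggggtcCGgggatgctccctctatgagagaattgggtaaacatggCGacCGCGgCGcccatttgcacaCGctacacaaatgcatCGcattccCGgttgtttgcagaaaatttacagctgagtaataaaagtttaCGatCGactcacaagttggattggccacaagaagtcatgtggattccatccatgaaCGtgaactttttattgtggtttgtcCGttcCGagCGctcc
HOXD1, chr2:176188418-176188667 (+): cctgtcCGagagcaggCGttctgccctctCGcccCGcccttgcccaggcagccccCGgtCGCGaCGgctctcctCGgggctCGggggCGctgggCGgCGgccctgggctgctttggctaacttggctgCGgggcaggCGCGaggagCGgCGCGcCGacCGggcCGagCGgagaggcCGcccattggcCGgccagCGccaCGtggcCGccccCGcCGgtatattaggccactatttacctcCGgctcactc
The HOXA13 stretch holds 40 CpGs and the HOXD1 stretch 31, whereas those of HOXC4/HOXC5 and HOXB1 hold 14 and 7. For HOXB and HOXC this was the single window matched, so the stretches do not rank the clusters. HOXA13 specifies the most distal limb and hindgut, and HOXB1 acts in the hindbrain.

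In control cells the HOX clusters were densely dotted with TET1 intervals. siNC had 8 intervals in HOXA, 16 in HOXB, 7 in HOXC and 10 in HOXD, or 55.4 per Mb over the 4 windows (exact 95% Poisson interval 39.8 to 75.2, counting error only). The 500 kb on either side of the clusters held 91 intervals, or 22.8 per Mb (18.3 to 27.9). The density in the clusters was thus 2.44 times that of the flanks. siNC as a whole held 9.31 intervals per Mb between the first and last interval of each chromosome. Intervals covered 2.09% of the HOX windows in siNC.

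Relative to their flanks, HOXA and HOXD had the highest densities, with few intervals around them. HOXA had 47.1 intervals per Mb (20.3 to 92.7) against 9 in its flanks (4.12 to 17.1), a ratio of 5.23. HOXD had 62.5 per Mb (29.97 to 114.9) against 7 (2.81 to 14.4), a ratio of 8.93, with 1 interval in the 500 kb below it and 6 in the 500 kb above it. The counting intervals of cluster and flank did not overlap in either. HOXB had 64 per Mb (36.6 to 103.9) against 36 in its flanks (25.2 to 49.8), and HOXC had 43.8 (17.6 to 90.1) against 39 (27.7 to 53.3). In both of these the counting intervals overlapped, which does not settle whether an excess over the flanks was present. The ratio to the flanks was 1.78 for HOXB and 1.12 for HOXC. Their counting intervals, with the flank count held fixed, were 1.02 to 2.89 and 0.451 to 2.31.

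In the siCHD5 list HOXA and HOXD again stood out from sparse flanks, and more intervals lay inside HOXC. It had 11 intervals in HOXA, 18 in HOXB, 14 in HOXC and 10 in HOXD, or 71.6 per Mb (53.6 to 93.7), against 25.5 in the flanks (20.8 to 30.96), a ratio of 2.81. By cluster the ratio to the flanks was 5.39 in HOXA, 1.67 in HOXB, 2.30 in HOXC and 6.94 in HOXD, and the counting intervals again overlapped for HOXB and HOXC. With the flank count held fixed, the counting interval of the ratio was 0.992 to 2.65 in HOXB and 1.26 to 3.86 in HOXC. From siNC to siCHD5 the number of HOX intervals changed by a factor of 1.29, that of the flanks by 1.12 and that of the whole list by 1.15. HOXC had 2 times as many intervals in siCHD5 as in siNC, but the exact 95% Poisson intervals of the counts, 2.81 to 14.4 and 7.65 to 23.5, overlapped. The larger number was made of weak intervals: at a fold of 4 or more HOXC had 6 intervals in siNC and 7 in siCHD5, and at a −log10 q of 10 or more it had 5 and 4.

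**Figure D1:**
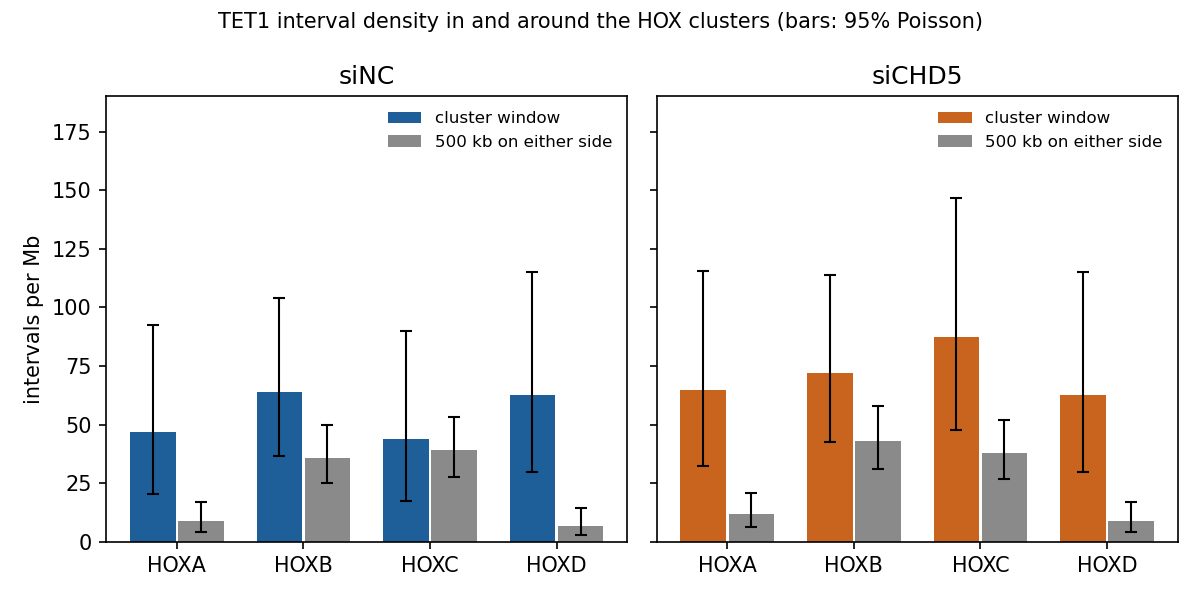
TET1 intervals per Mb (vertical axis) in each HOX window (coloured bars) and in the 500 kb on either side (grey bars), for siNC (left) and siCHD5 (right); error bars are exact 95% Poisson intervals of the counts. HOXA and HOXD stand above their flanks in both lists, while the error bars of HOXB and HOXC overlap those of their flanks.

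HOX intervals were numerous but weak. Fold enrichment, the authors' value for pull-down signal divided by local control, had a median of 5.49 over the 41 siNC HOX intervals, against 7.49 in the flanks and 6.78 in the whole list. In siCHD5 the medians were 5.09 in the clusters, 6.66 in the flanks and 6.96 in the whole list. Only 20 of 41 siNC HOX intervals (48.8%) reached a −log10 q of 10, against 72.2% of the siNC list and 76.9% of the flank intervals. In siCHD5 25 of 53 did (47.2%), against 74.3% of the list. Limited to that level, the density of the clusters was 1.54 times that of the flanks in siNC and 1.90 times in siCHD5. At that level HOXB in siNC and HOXC in siCHD5 were less dense than their flanks, at ratios of 0.80 and 0.862.

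The reads behind these values were few. The pull-down pileup at the HOX summits of siNC, recovered from fold and p, had a median of 24 reads (10 to 87), against 33 in the whole list and 42 in the flanks. The control background there had a median of 3.55 reads, against 3.70 in the whole list. In siCHD5 the HOX pileup had a median of 25 reads (11 to 102) over a background of 3.99, against 37 and 4.09 in the whole list. HOX intervals of siNC were also wide, with a median of 377 bp against 298 bp in the list and 338 bp in the flanks. In siCHD5 the medians were 293 bp in the clusters, 299 bp in the list and 327 bp in the flanks.

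**Figure D2:**
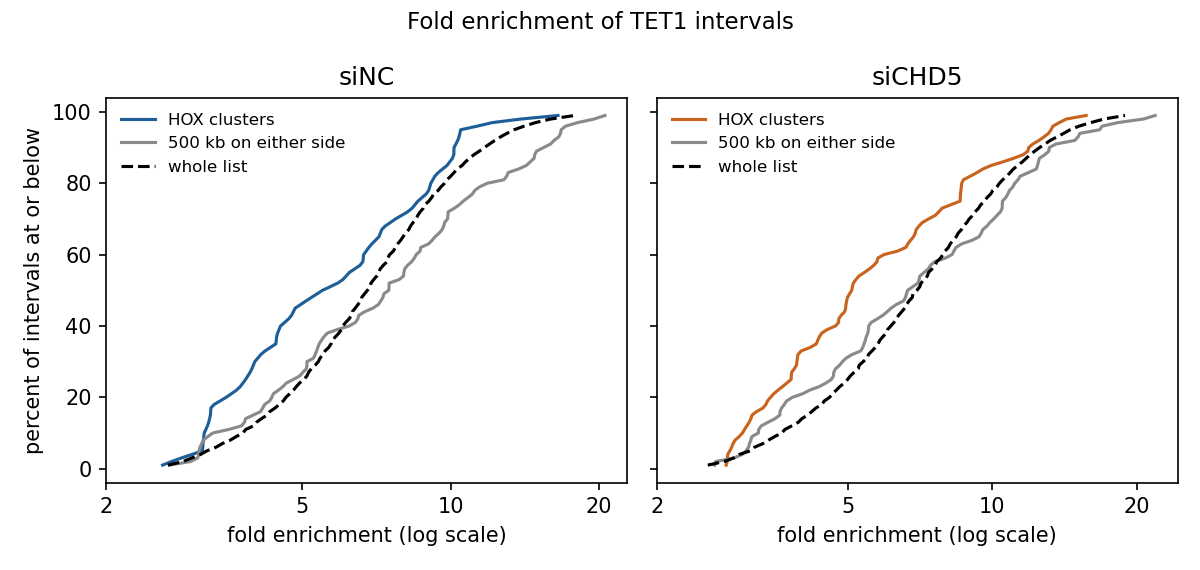
Percent of intervals (vertical axis) at or below a given fold enrichment (horizontal axis, log scale) for the HOX clusters, the 500 kb on either side and the whole list, in siNC (left) and siCHD5 (right). The HOX curves lie to the left of the other curves over most of their range, with medians of 5.49 in siNC and 5.09 in siCHD5.

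The strongest TET1 site of all HOX clusters lay in HOXD, the cluster known for limb digits and the urogenital tract. At chr2:176991733-176992178 the fold was 19.2 in siNC (14.9 to 24.3, from the exact 95% Poisson interval of the pileup) and 17.2 in siCHD5 (14.0 to 20.9). It ranked 182nd by fold of the 28072 siNC intervals and 604th of the 32208 siCHD5 intervals. Its pileup was 66 reads in siNC, over a background of 2.50 that is about the smallest of that list. In siCHD5 it was 100 reads over 4.87, so the higher siNC fold went with fewer reads. Above it, at chr2:177005193-177005694, the folds were 10.2 in siNC and 7.18 in siCHD5. Below it, at chr2:176983667-176984082, they were 8.29 and 11.8. These 3 sites were the highest of HOXD in siNC. In siCHD5 the next places went to the last of these and to a site at chr2:176944590-176944874, with a fold of 10.8 (7.88 to 14.6), a pileup of 42 reads and the nearest siNC summit 6.39 kb away. That site was also the first of the cluster in siCHD5, whereas in siNC the first lay at chr2:176950972-176951348 (6.86-fold).

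HOXD sites ended well short of the upper bound of the window. The last siNC interval, chr2:177010777-177011183 (3.25-fold), left 68.8 kb without a peak up to the bound, and the last siCHD5 interval, chr2:177005241-177005836, left 74.2 kb. In the gene table, HOXD1 stands at that end of the cluster. With the window in 3 equal stretches, no HOXD summit of siNC or siCHD5 lay in the uppermost, while the lowest held 4 and 6. Over the whole lists, 85.3% of siNC intervals and 74.4% of siCHD5 intervals overlapped one of the other list, called a partner here. The siNC peaks at chr2:177002871-177003106 (3.26-fold) and at chr2:177010777-177011183 had no siCHD5 partner, and the siCHD5 peak at chr2:176961442-176962004 (3.06-fold) had no siNC partner.

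HOXA, whose members pattern the hindbrain, limbs and reproductive tract, was empty at its other end. The first siNC interval, chr7:27175772-27176377, stood 75.8 kb into the window, and the first siCHD5 interval, chr7:27152802-27153050, stood 52.8 kb into it. The gene table places HOXA2 first at that end. The highest siNC sites were chr7:27219270-27219783 (12.6-fold), chr7:27200656-27200931 (9.34-fold) and chr7:27175772-27176377 (8.58-fold), and siCHD5 had folds of 8.58, 9.73 and 6.70 there. In siCHD5 the highest was chr7:27183222-27183730 (12.6-fold), followed by chr7:27200601-27200976 and chr7:27235847-27236175 (8.64-fold, 6.23 in siNC). The cluster closed in both lists with a site at chr7:27249952-27250295 (7.15-fold in siNC, 5.78 in siCHD5). The siNC peak at chr7:27221921-27222216 (4.0-fold) had no siCHD5 partner. Of 4 siCHD5 peaks without a siNC partner, the highest was chr7:27190492-27190733 (5.52-fold).

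HOXB, the longest window, had summits in each of its 3 equal stretches in both lists. Neighbouring summits were up to 46.1 kb apart in siNC and 48.2 kb apart in siCHD5. Sites at its first end, chr17:46600418-46600662, had folds of 4.15 in siNC and 4.29 in siCHD5. Its highest sites lay at 4 positions. At chr17:46748953-46749373 the fold was 10.5 in siNC and 14.3 in siCHD5, with pileups of 87 and 102 reads, the largest of the 4 clusters in each list. At chr17:46801932-46802286, the last siNC interval, the folds were 10.4 and 9.21. At chr17:46695959-46696426 they were 10.1 and 11.9, and at chr17:46755827-46756223 they were 9.00 and 13.4. The last siCHD5 interval, chr17:46806399-46806910 (4.34-fold), had no siNC partner.

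Sites found in 1 list alone were also present in HOXB, and all were weaker than the highest shared ones. siNC had 5 such intervals: chr17:46681673-46681975 (3.83-fold), chr17:46741012-46741217 (3.50-fold), chr17:46689348-46689983 (3.22-fold), chr17:46624709-46625009 (3.13-fold) and chr17:46688408-46688877 (2.77-fold). siCHD5 had 7 besides shared ones, counting the last site above, and the highest were chr17:46692399-46692647 (5.74-fold), chr17:46740518-46740773 (5.13-fold), chr17:46703857-46704312 (4.99-fold) and chr17:46654898-46655176 (4.43-fold), with chr17:46667589-46667835 (3.92-fold) below them. The summits of the siCHD5 site at 46740518 and of the siNC site at 46741012 were 422 bp apart, so absence of overlap did not always mean a distant site.

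HOXC held 8 sites called in siCHD5 without a siNC partner, all of them weak. Its first site, chr12:54378680-54379149, was also its highest in both lists, with folds of 9.83 in siNC and 13.2 in siCHD5. It stood 68.7 kb into the window in both, and no HOXC summit of either list lay in the lowest of its 3 equal stretches. The gene table lists HOXC13, a factor of hair and nail development, first at that empty end. The sites at chr12:54399798-54400078 (7.27-fold in siNC, 8.62 in siCHD5), chr12:54382613-54383204 (6.66 and 4.94) and chr12:54426401-54426777 (6.63 and 6.95) followed. The last site, chr12:54448323-54448710, had folds of 4.44 and 4.79. Of 14 siCHD5 intervals 8 (57.1%) had no siNC partner, against 25.6% of the siCHD5 list. All 8 were under a −log10 q of 10, where they made up 8 of 10 HOXC intervals, against 66.4% without a partner over the list at that level. Among them were chr12:54427324-54427612 (5.25-fold) and chr12:54399142-54399345 (3.94-fold). Their folds lay between 2.78 and 5.25, whereas the 6 shared sites had siCHD5 folds between 4.78 and 13.2. The siNC interval at chr12:54405265-54405591 (3.16-fold) had no siCHD5 partner.

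**Figure D3:**
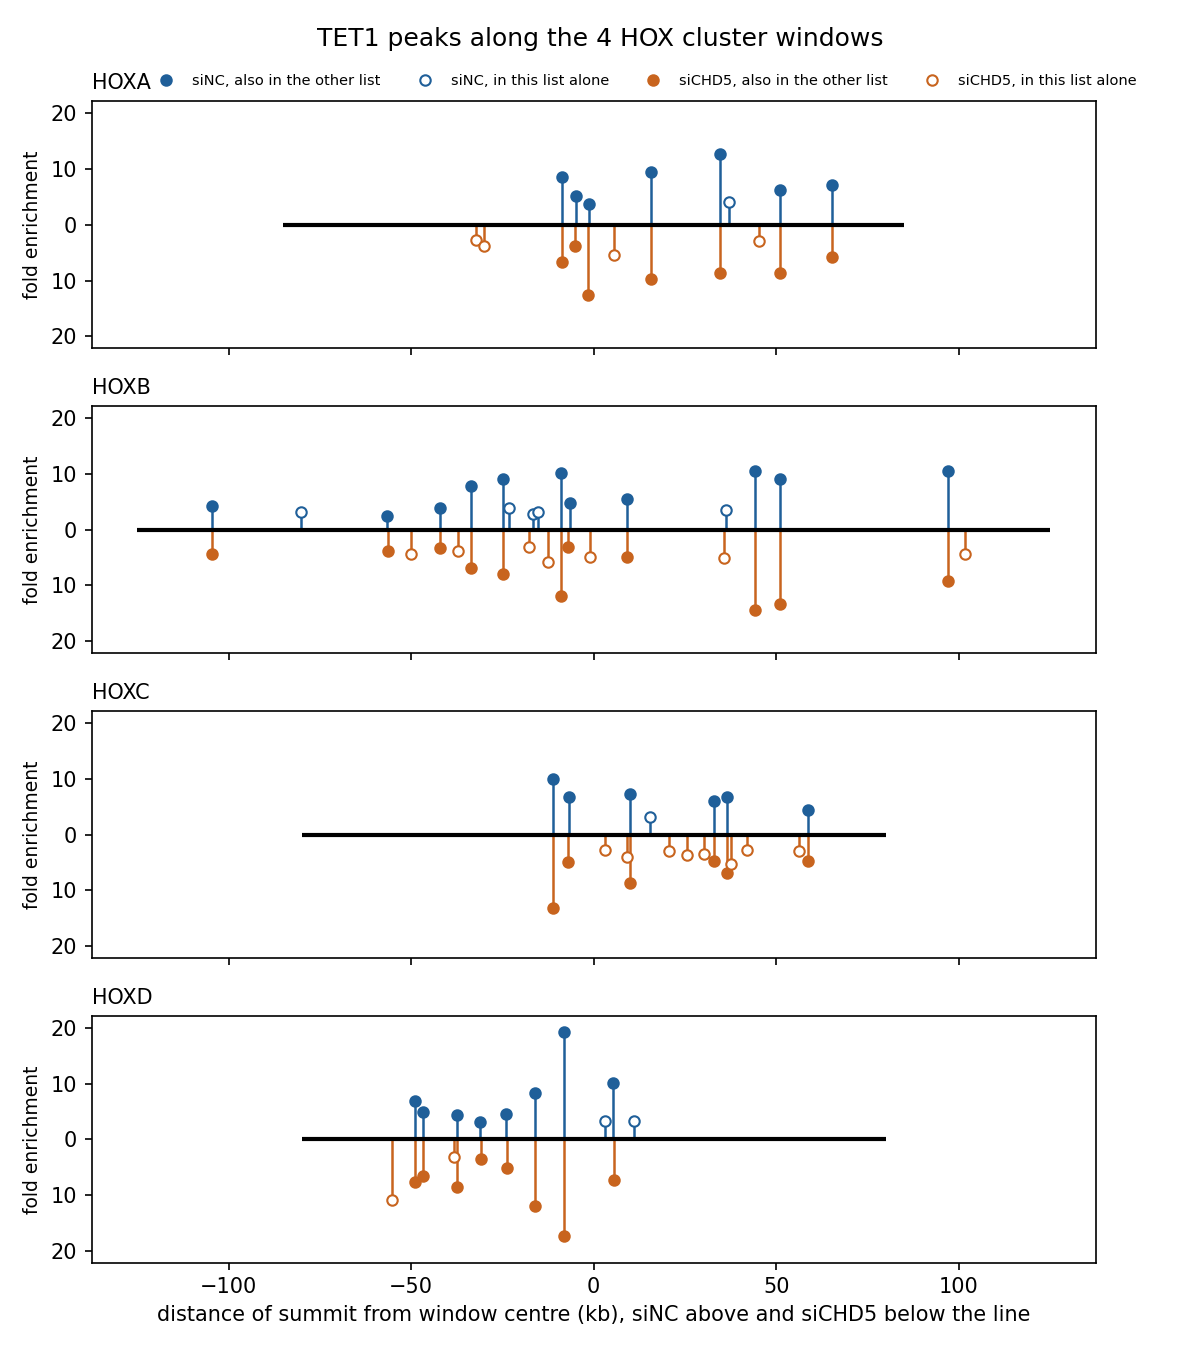
Fold enrichment (vertical axis) of each TET1 interval against the distance of its summit from the centre of its window in kb (horizontal axis), with siNC above and siCHD5 below the line; filled points overlap an interval of the other list and open points do not. The highest points, 19.2 in siNC and 17.2 in siCHD5, stand at one position in HOXD, and HOXC holds 8 open siCHD5 points.

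Over the 4 clusters together, consecutive TET1 summits had a smaller median spacing than in the flanks. The median distance to the next summit was 8.08 kb in siNC (37 distances) and 6.38 kb in siCHD5 (49). In the flanks it was 15.4 kb and 15.0 kb, and over all chromosomes 48.5 kb and 42.5 kb. By cluster the siNC medians were 13.8 kb in HOXA, 8.54 kb in HOXB, 11.2 kb in HOXC and 7.15 kb in HOXD. Their own flanks had siNC medians of 29.4, 15.7, 11.9 and 47.1 kb, so HOXC was near its flanks. The flank medians of HOXA and HOXD rest on 7 and 5 distances. In siCHD5 the cluster medians were 8.63, 6.78, 4.41 and 6.997 kb, against 14.1, 15.5, 11.2 and 83.7 kb in the flanks. HOXC thus had the tightest spacing of the 4 in siCHD5, which at a −log10 q of 10 or more became 16.8 kb over its 4 intervals, and HOXD differed least between the lists. The longest distances lay in HOXB, 46.1 kb in siNC between the summits at 46755965 and 46802077, and 48.2 kb in siCHD5 between those at 46600540 and 46648710.

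**Figure D4:**
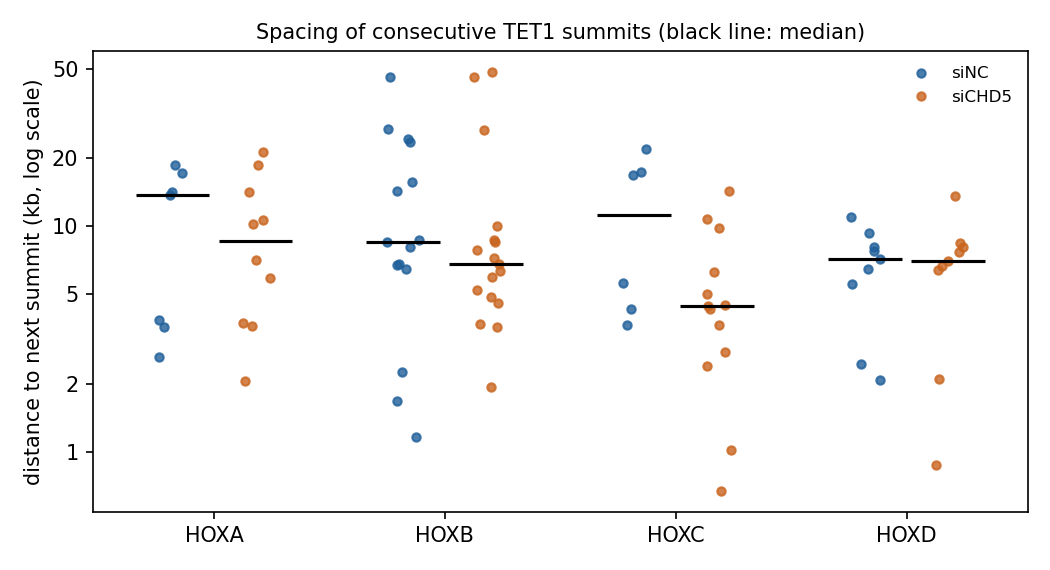
Distance from each TET1 summit to the next (vertical axis, kb, log scale) in each HOX cluster for siNC and siCHD5; each point is 1 pair of neighbouring summits and the black lines are medians. In HOXC the medians are 11.2 kb in siNC and 4.41 kb in siCHD5.

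The siCHD5 list was laid over siNC to see which HOX sites both held. Of the 41 siNC HOX intervals 32 (78.0%, exact Clopper-Pearson 95% interval 62.4 to 89.4, counting error only) overlapped a siCHD5 interval by at least 1 bp, against 85.3% of all siNC intervals and 86.8% of those in the flanks (78.1 to 93.0). In the other direction 32 of 53 siCHD5 HOX intervals (60.4%, 46.0 to 73.5) overlapped siNC, against 74.4% of all siCHD5 intervals and 77.5% of those in the flanks. Both HOX shares were below the list shares, and the siCHD5 interval of 46.0 to 73.5 lay just under its list share. By cluster, 7 of 8 siNC intervals of HOXA, 11 of 16 of HOXB, 6 of 7 of HOXC and 8 of 10 of HOXD were shared. Of the siCHD5 intervals 7 of 11, 11 of 18, 6 of 14 and 8 of 10 were.

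Among intervals of like strength the HOX shares were close to those of the lists. All 20 siNC HOX intervals of −log10 q 10 or more overlapped siCHD5, against 95.9% over the list, and 22 of 25 such siCHD5 intervals overlapped siNC, against 88.5%. The 3 exceptions were the HOXD site at chr2:176944590-176944874 and the HOXB sites at chr17:46692399-46692647 and chr17:46740518-46740773. Below that level 12 of 21 siNC HOX intervals (57.1%) were shared, against 58.0% over the list, and 10 of 28 siCHD5 intervals (35.7%), against 33.6%. The 9 siNC HOX intervals without a partner had folds of 2.77 to 4.0 and pileups of 11 to 22 reads. The 21 of siCHD5 had folds of 2.78 to 10.8, with a median of 3.91.

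At the 32 shared HOX sites the fold differed little between siNC and siCHD5. The median log2 ratio of siCHD5 to siNC fold was 0.06 (quartiles −0.25 and 0.43), against 0.13 over the 23958 shared siNC intervals of the whole list. The siCHD5 fold was above the siNC fold at 18 of 32 sites, against 60.3% over the list. The median log2 ratio was −0.31 in HOXA, −0.15 in HOXB, 0.09 in HOXC and 0.16 in HOXD, over 7, 11, 6 and 8 sites. Across the 32 sites, which share their 2 lists, Pearson's r of log2 fold was 0.72 and Spearman's rho 0.70, against 0.65 and 0.61 over all shared intervals. By cluster r was 0.88 in HOXB, 0.86 in HOXC and 0.85 in HOXD. In HOXA, over 7 sites, r was −0.01 and rho −0.04. These 7 include the site at chr7:27183399-27183716, with folds of 3.72 in siNC and 12.6 in siCHD5, and r without it was not computed. Summits of shared HOX sites were a median of 19 bp apart, and 27 of 32 lay within 100 bp of each other. Over all shared intervals the median was 10 bp, with 23577 of 23958 within 100 bp. In the flanks it was 10 bp, with 77 of 79. HOX intervals were weaker than those of the flanks, and summit distances were not compared at like strength. The HOX pairs over 100 bp apart had siNC −log10 q of 1.31, 1.69, 6.84, 7.34 and 26.9.

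One HOX site differed between the 2 lists beyond counting error. At chr7:27183399-27183716 in HOXA the siNC fold was 3.72 (2.06 to 6.28, 12 reads over a background of 2.50) and the siCHD5 fold was 12.6 (9.34 to 16.7, 47 reads over 2.80). The log2 ratio was 1.76, and the exact 95% Poisson intervals did not overlap. Intervals that were apart and higher in siCHD5 made up 6.72% of all shared intervals, and apart and lower 2.38%. With 1 of 32 HOX sites higher and 0 lower, the HOX counts were near or below those shares. The next largest ratio, 0.96, was at the HOXD site chr2:176962407-176962663, with folds of 4.42 (2.81 to 6.65) and 8.57 (6.16 to 11.6), whose intervals overlapped. The largest ratio in the other direction, −0.58, was at the HOXB site chr17:46698068-46698533, with folds of 4.73 and 3.17. These intervals compare 2 pooled lists and not cultures, and they leave out the counting error of the control.

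**Figure D5:**
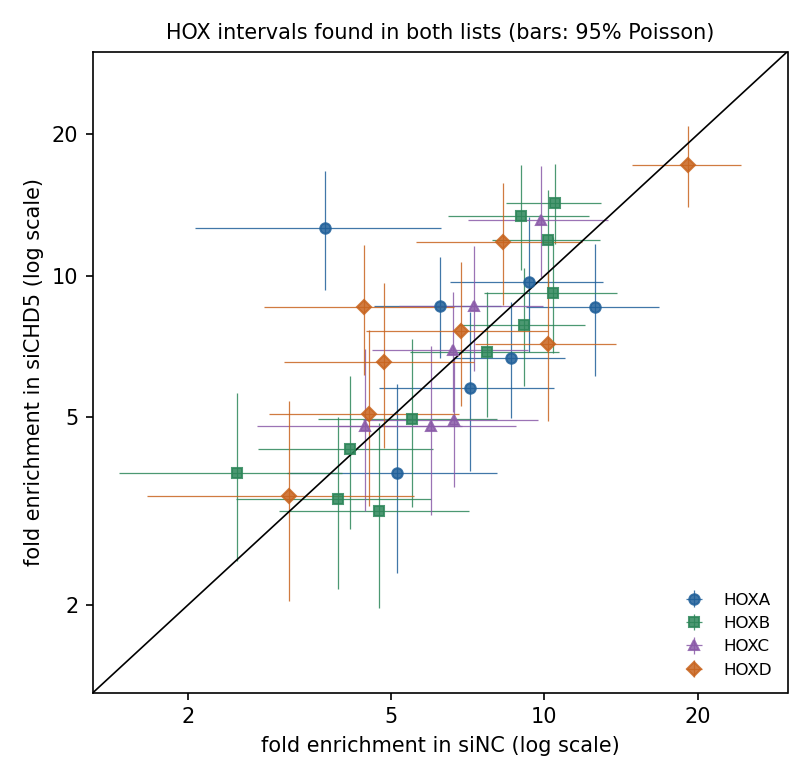
Fold enrichment in siCHD5 (vertical axis) against siNC (horizontal axis), both on log scales, for the 32 HOX sites found in both lists; bars are exact 95% Poisson intervals of the pull-down pileup and the line marks equal folds. The HOXA site at 3.72 in siNC and 12.6 in siCHD5 is the one whose bars do not overlap between lists.

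The lists of siCHD3, siCHD4, siMBD2 and siMBD3 had no peak in any HOX cluster. These lists were short, with 104, 77, 284 and 188 intervals, so 0 intervals, taken as under 3 intervals of the list, allow a share of up to 2.88%, 3.90%, 1.06% and 1.60% in the clusters. The exact 95% Clopper-Pearson upper limits are 3.48%, 4.68%, 1.29% and 1.94%. The share in siNC was 0.146% (0.105 to 0.198), far under those limits, and at that share the lists would hold 0.152, 0.112, 0.415 and 0.275 HOX intervals. A loss particular to the HOX clusters was therefore not detectable. None of the 41 siNC HOX intervals overlapped these lists, against 0.142%, 0.135%, 0.210% and 0.139% of all siNC intervals. The 284 siNC intervals of highest −log10 q, as many as the siMBD2 list holds, included 0 HOX intervals as well.

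The single interval of these 4 lists within 500 kb of a HOX cluster was in siMBD2. It lay at chr7:26707118-26707369, 393 kb below the HOXA window, with a fold of 3.47, a pileup of 14 reads over a background of 3.32 and a −log10 q of 1.43. Its summit was 0.138 kb from a siNC summit. For HOXD the nearest intervals of siMBD2 and siMBD3 lay at chr2:178129892-178130103 (3.88-fold) and chr2:178129743-178130030 (3.41-fold), 1050 kb above the window. For HOXC the nearest siMBD3 interval, chr12:52541888-52542168 (5.30-fold), was 1768 kb away. The nearest siCHD4 interval to HOXB was chr17:43212686-43212880 (4.84-fold), 3367 kb away. The nearest siCHD3 interval to any HOX window was 24319 kb away.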

How the data were processed

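TET1 ChIP-seq of HEK293T cells was analysed from 6 deposited peak lists, 1 per siRNA, taken as called on 3 pooled replicates because their names carry replicates 1 to 3. Tools listed in the submitters' processing notes, without roles, are MACS2 2.1.2, Bowtie2 2.3.4 and FastQC 0.11.7, then deepTools 3.5.0, SAMtools 1.9 and bedtools 2.25.0, with build hg19. Caller settings and duplicate removal are not given in the sources used here. In the deposited lists, fold is a ratio of pull-down over local control, −log10 p and −log10 q refer to the summit, and the deposited score was not used. Coordinates are counted from 1.

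Peaks were reduced to distinct intervals, each with the summit of highest −log10 q. Python 3.11.15, pandas 2.3.3, NumPy 2.4.6, SciPy 1.17.1 and matplotlib 3.10.9 were used. Overlap was 1 bp or more. Pileup and background were recovered from fold, with a pseudocount of 1, and −log10 p, within 0.02, for 99.99% of siNC and siCHD5 peaks. The read depth of the libraries was not analysed here. The smallest background was 2.50 reads in siNC and 2.80 in siCHD5. With 1 list per group no test between groups was run. Intervals of 95% cover counting error only. Overlap, recovery and intervals were tested on simulated data.

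Named were the 3 sites of highest fold per cluster and list, the first and last sites, up to 10 unshared sites per list, and peaks of the short lists; each siCHD5-only site beyond these is in the counts. HOX cofactors and neighbours were not placed, since no hg19 annotation was used here. The windows, genes and rules were chosen with earlier results of these data known.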

Additional observations from a re-analysis of the deposited data

How the results depend on the processing

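Limiting the lists to −log10 q of 10 or more left 20 of 43 siNC and 26 of 54 siCHD5 deposited HOX peaks, and this setting holds fewer peaks by construction. Over the 4 clusters it gave cluster over flank densities of 1.54 and 1.90, shared shares of 100% and 88.0%, and median spacings of 16.2 kb and 12.4 kb, in siNC and siCHD5. By cluster it left 5 siNC intervals in HOXA, 6 in HOXB and 4 in HOXD, and 6 siCHD5 intervals in HOXA, 8 in HOXB and 4 in HOXC. The density ratio fell to 0.80 for HOXB in siNC and 0.862 for HOXC in siCHD5. Spacing became 17.6 kb for HOXA and 13.4 kb for HOXD in siNC, and 16.5 kb for HOXA, 16.8 kb for HOXC and 8.70 kb for HOXD in siCHD5. A fold minimum of 4 left 9 siNC intervals in HOXB, and 7 siCHD5 intervals in each of HOXA and HOXC. Flanks of 250 kb gave HOXA ratios of 11.8 in siNC and 10.8 in siCHD5, and the cause was not tested. The other planned settings moved no count run on them, per cluster or over the 4, by more than 1.5 times, and no density ratio, share or spacing beyond its counting interval or quartiles. Shares and log2 ratios were rerun over the 4 clusters together. The 4 short lists held 0 HOX peaks under each setting run on them. No paired analysis was possible because each siRNA has 1 list for replicates 1 to 3 together, and for the same reason no replicate could be left out. Pileups of 10 to 25 reads limit the weak sites.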

Other observations

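The bounds of the windows fell close to a site at 3 clusters. At HOXB a siNC interval at chr17:46578516-46578792 (5.11-fold) and a siCHD5 interval at chr17:46578584-46578820 (3.15-fold) lay 1.21 kb and 1.18 kb below the window. At HOXA intervals at chr7:27275007-27275226 (4.67-fold in siNC) and chr7:27275009-27275234 (5.52-fold in siCHD5) lay 5.01 kb above it. At HOXC a siNC interval at chr12:54475323-54475530 (3.08-fold) lay 5.32 kb above the window, and the nearest siCHD5 interval on that side was 62.1 kb away. HOXD stood alone, with the nearest siNC intervals 365 kb below and 193 kb above its window, and the nearest siCHD5 intervals 248 kb and 81.7 kb away.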
